A study of Mus musculus with 80 samples.

Results

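The cells described here are freshly sorted mouse hematopoietic stem cells (HSCs) with next to no transcripts of 14 chosen cell cycle genes. They were taken from one single-cell RNA-seq (scRNA-seq) library of young and one of old mice. A cell was kept if it had at least 800 detected genes and at most 5% of its UMIs from mitochondrial genes, 0 UMIs summed over 7 mitotic genes (Mki67, Top2a, Ube2c, Ccnb2, Birc5, Hmmr and Cenpf), and at most 1 UMI summed over 7 S-phase genes (Ung, Uhrf1, E2f1, Hells, Chek1, Mcm5 and Ccne2). Each UMI (unique molecular identifier) stands for 1 RNA molecule caught in a droplet. The members were thus selected on measured UMI counts, and the rule kept 548 young and 2107 old cells, 2655 of the 18377 barcodes in the single-cell libraries of the series, and these are called quiescent HSCs below by that rule alone. The donors were male C57BL/6 mice with no genetic change or treatment named. The methods give ages of 2 to 3 months (young) and 22 to 24 months (old), while the study's library list gives 2 to 4 and 20 to 24 months. The legend of the study's single-cell figure gives 2 to 3 months for young mice and a single age, inside these ranges, for old mice. Cells were sorted as lineage-negative, Sca-1+, c-Kit+, CD48-, CD34- and CD150+, and how many mice went into a library is not given in the sources used here.

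HSCs sit at the top of the blood lineage tree, and most of them rest outside the cell cycle for long periods in the bone marrow. With age they become more numerous, give fewer lymphoid cells and rebuild blood less well after transplantation. Resting cells hold few transcripts of DNA replication and mitosis, so an age comparison within them is less mixed with the share of dividing cells than one on all sorted HSCs.

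The young library held 1459 barcodes, of which 1104 passed the quality limits, and the old library 3720, of which 2758 passed. The rule kept 49.6% of young cells that passed (exact binomial 95% interval 46.7 to 52.6) and 76.4% of the old ones (74.8 to 78.0). The rule reads transcripts, so this share is a description of the choice. Just inside the S-phase limit, at 1 UMI, were 157 young and 444 old cells, and just outside it, at 2 UMIs with 0 mitotic UMIs, were 65 and 90. A single mitotic UMI left out 184 young and 277 old cells. Quiescent cells had a median of 12360 UMIs and 3513 genes in the young and 12712 UMIs and 3482 genes in the old library, and a median mitochondrial share of 3.24% and 3.22%. Cells left out by the rule were deeper, with medians of 16994 and 15825 UMIs. The libraries shared 2 barcodes over all cells and 0 among the quiescent ones. Scrublet called 5 young and 4 old quiescent cells doublets, and they were left in.

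The kept cells carried HSC markers at both ages. Hlf, Mecom and Procr, which encode 2 transcription factors and the surface protein EPCR of HSCs, were read in cells thinned to the same depth of 9076 UMIs, which left 489 young and 1900 old cells. At least 1 of the 3 had a UMI in 99.0% of young cells and 98.9% of old cells, and all 3 in 55.2% and 53.0%. The 8 HSC markers summed to 1482 CPM (UMIs scaled to a library total of 1e6) in young and 1308 in old cells. Markers of other cells were partly absent and partly present. Cd3e, Cd3g, Ncr1, Ms4a1 and Prss34, of T, NK and B cells and basophils, were at 0 UMIs at both ages, and the 4 stromal genes summed to 1.15 and 0.365 CPM. The B cell receptor component Cd79b had 47.8 and 35.9 CPM and was seen in 36.2% and 27.6% of thinned cells, and the cytotoxic granule gene Nkg7 had 9.65 and 6.05 CPM. The 5 megakaryocyte markers summed to 84.1 and 103.6 CPM, most of it Pf4, and the 5 endothelial markers to 74.3 and 75.6 CPM, led by Emcn. The 5 macrophage markers summed to 7.06 CPM in young and 2.77 CPM in old cells, and the 5 neutrophil markers to 5.47 and 3.94 CPM. C1qa had a ratio of 0.333 (95% interval 0.176 to 0.640), C1qb of 0.313 (0.157 to 0.631) and C1qc of 0.633 (0.294 to 1.48). All of these C1q genes were called lower in the bulk libraries described below. The part of these transcripts in the results was not tested. The 5 erythroid markers summed to 140 CPM in young and 88.5 CPM in old cells. Hbb-bt, a beta-globin gene that HSCs are not known to make, was the most abundant of them, and its UMIs were in 21.1% of thinned young and 13.8% of thinned old cells. No other cell type was set apart in these sorted libraries to measure free RNA, so shares of cells below are shares with a UMI and not of expressing cells.

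Between the ages, 130 of 9635 measured genes were at least 2 times higher in old quiescent cells (1.35% of genes measured) and 107 were at least 2 times lower (1.11%). A gene counted as measured at a mean of at least 5 CPM over the 2 libraries, where CPM are the summed UMIs of the kept cells scaled to their total. Each age rests on 1 library, so no test between ages was made here, and the intervals below cover counting error only. The median log2 ratio over all measured genes was -0.09. Scaling by the median ratio over genes, which moves every log2 ratio up by 0.1, gave 155 genes higher and 81 lower.

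**Figure D1:**
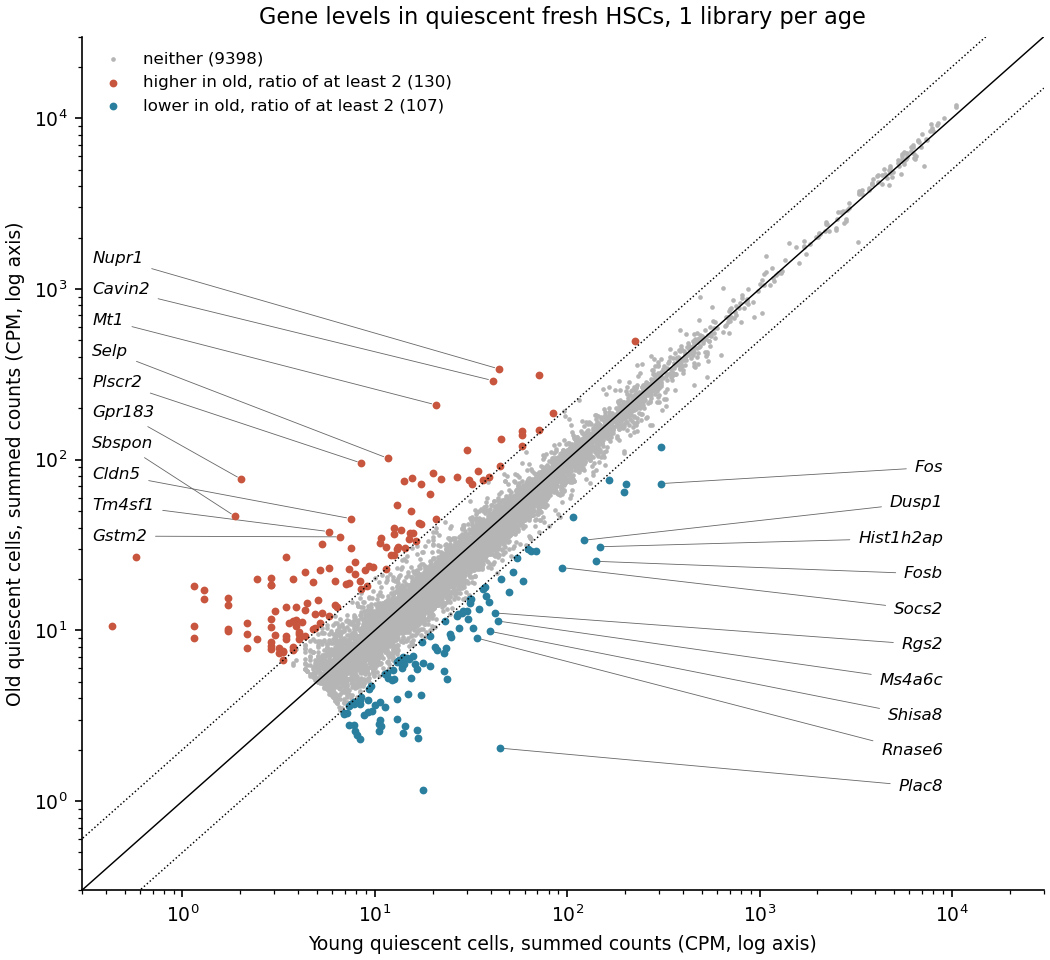
Summed counts of each measured gene (CPM, log axes) in young (x) and old (y) quiescent cells; the solid line is equality and the dotted lines a ratio of 2 either way. The 130 genes higher in old cells and the 107 lower are coloured, and the 10 leading genes on each side are named.

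Bulk RNA-seq libraries of fresh HSCs, 3 young and 3 old, were the replicated samples that the rule did not use. They hold resting and dividing cells together, so fewer cells of a kind and less RNA per cell cannot be told apart in them, and nothing in the labels says that the 3 of a group came from separate mice. Their values are FPKM (fragment counts scaled by gene length and library size), tested with limma on log2(FPKM + 1), a scale that understates the change of low genes. Over 11279 genes tested, 364 were higher in old (3.23%) and 321 lower (2.85%) at an adjusted p under 0.05. Of the 130 genes higher in old quiescent cells, 126 could be tested in bulk, and 92 of these were called higher and 0 lower. Of the 107 lower genes, 103 could be tested, and 33 were called lower and 0 higher. Read the other way, 92 of the 295 genes called higher in bulk and measured in quiescent cells (31.2%) passed the 2-fold limit there, against 33 of the 186 called lower (17.7%). One young bulk library, replicate 3, stood apart in stress-responsive genes, and one old library, replicate 1, in globins, as their values below show.

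The largest ratio among genes at a mean of at least 20 CPM was that of Gpr183, which encodes a receptor for oxysterols that guides immune cell migration and lies at chr14:121952331-121965193 of GRCm38. It had 14 UMIs in the 548 young cells and 2110 in the 2107 old cells, 2.02 against 76.9 CPM, a ratio of 38.1 (22.7 to 69.9). In thinned cells it was seen in 0.818% of young and 34.6% of old cells. In bulk, its FPKM were 0.656, 0.145 and 1.12 in young and 51.7, 42.7 and 39.2 in old libraries, a log2 fold change of 4.83 ± 0.26 (SE, adjusted p = 2.47e-06). All 3 old libraries lay far above all 3 young ones. Sbspon, a secreted somatomedin B and thrombospondin domain protein at chr1:15853862-15892722, behaved alike, with 1.87 and 46.6 CPM and a ratio of 24.9 (14.5 to 46.9). Its bulk FPKM were 0.0496, 0.676 and 1.11 in young and 36.8, 52.0 and 53.7 in old libraries.

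The metallothioneins are small cysteine-rich proteins that bind zinc and copper, and both measured members were higher. Mt1 had 20.7 CPM in young and 209 CPM in old cells, a ratio of 10.1 (8.56 to 12.0), and was seen in 12.1% and 66.4% of thinned cells. Its bulk FPKM were 56.8, 61.5 and 99.54 in young and 375, 452 and 510 in old libraries. Mt2, its neighbour on chromosome 8, had 4 UMIs in all young quiescent cells and 736 in the old ones, a ratio of 46.6 with a wide interval of 18.1 to 171. Mt2 FPKM were 0.209, 0.572 and 2.42 in young and 83.6, 89.5 and 116 in old libraries (log2 fold change 5.69 ± 0.33, adjusted p = 2.47e-06). Both genes were thus higher in old cells and in every old bulk library, while the iron storage genes Fth1 and Ftl1 of the same list had ratios of 1.08 (1.06 to 1.10) and 1.14 (1.12 to 1.16).

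Metallothionein genes are known to be induced by zinc through metal response elements, whose core is TGCNCNC. The 250 bases upstream of the Mt2 start (RefSeq, GRCm38.p6, chr8:94172368-94172617, plus strand) are shown because Mt2 had the highest ratio of any named gene, with matches to that core on either strand in capitals.
Mt2: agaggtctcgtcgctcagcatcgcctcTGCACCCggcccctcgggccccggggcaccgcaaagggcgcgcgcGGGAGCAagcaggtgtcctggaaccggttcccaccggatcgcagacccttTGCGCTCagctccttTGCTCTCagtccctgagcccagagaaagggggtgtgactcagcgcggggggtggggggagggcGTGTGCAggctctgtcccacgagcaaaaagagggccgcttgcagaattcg
This window holds 5 matches, where 44.4% of the 32851 upstream windows of this length in the RefSeq table hold at least 1 and 0.344% hold at least 5. The matches are letters in a window, and binding was not measured.

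Further genes among the 10 with the highest ratios span membrane, adhesion and stress proteins. Nupr1, a small stress-induced chromatin protein, was the most abundant of the 10 in old cells, with 44.1 CPM in young and 340 CPM in old cells and UMIs in 21.7% and 80.0% of thinned cells. Its bulk FPKM were 53.4, 94.6 and 102.2 in young and 713, 1207 and 806 in old libraries (log2 fold change 3.45 ± 0.23, adjusted p = 7.83e-06). Selp, the adhesion receptor P-selectin of platelets and endothelium, had 11.7 and 101.9 CPM, and its FPKM were 1.84, 1.83 and 3.09 in young and 36.2, 42.3 and 51.9 in old libraries. Old cells were above young ones for both genes by each method. Plscr2, a phospholipid scramblase family member, had a ratio of 11.2 (8.68 to 14.8) and Cavin2, a coat protein of caveolae, one of 7.11 (6.31 to 8.03). Tm4sf1 and Cldn5, membrane proteins best known from endothelium, had ratios of 6.58 (4.80 to 9.26) and 6.03 (4.57 to 8.12), and the glutathione transferase Gstm2 one of 5.33 (3.96 to 7.33). All 10 were called higher in bulk, against 3.23% of all genes tested. In each, all old libraries lay above all young ones, which held for 12.5% of all genes tested.

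In cells thinned to the same depth, the median young cell had UMIs of 1 of these 10 genes and the median old cell of 5. None of the 10 was seen in 38.04% of young and 0.368% of old cells. At least 5 of the 10 were seen in 0 of 489 young and in 53.6% of old cells. These genes chose themselves by their ratio, so a gap between the ages in these shares was given with the choice. The shares describe only in how many cells UMIs of the 10 genes together were seen, which was nearly all old cells. Free RNA was not measured, so how widely old cells express these genes was not tested.

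**Figure D2:**
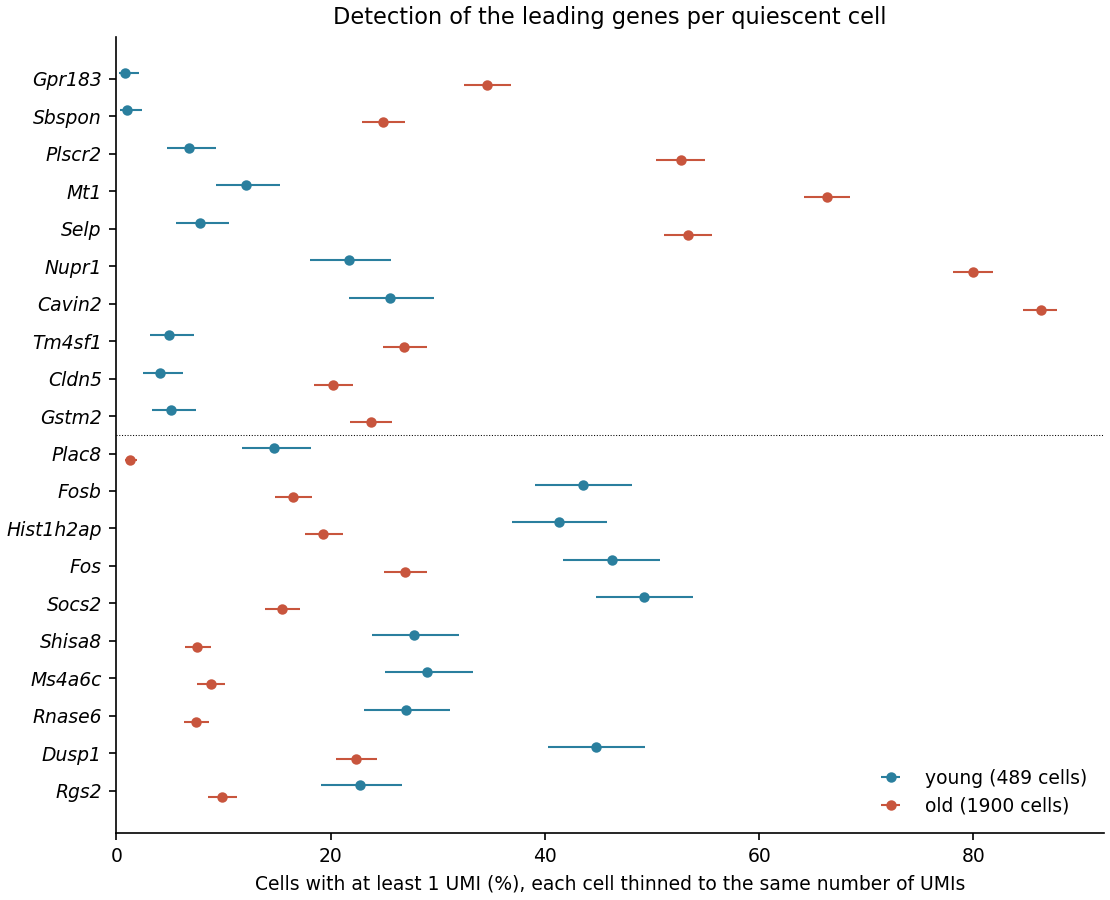
Share of thinned quiescent cells (%) with at least 1 UMI of each of the 10 genes with the highest (above the dotted line) and the 10 with the lowest old over young ratio, with exact binomial 95% intervals. Cavin2 and Nupr1 are seen in at least 80.0% of old cells, and Plac8 in 14.7% of young and 1.32% of old cells.

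A list of HSC aging genes that the study took from published datasets held 74 measured genes. All 74 had more CPM in old than in young quiescent cells, 58 passed the 2-fold limit upward against 1.35% of all genes, and the median log2 ratio was 1.66. A thinned young cell had a median of 11 UMIs of the list and an old cell 38, and 7.16% of old cells were at or below the 90th percentile of young cells, 21 UMIs. In bulk, 80 of 88 tested members were called higher and 0 lower, against 3.23% and 2.85% of all genes, and 60 to 75 were higher with 1 library left out. The list was made to separate old from young HSCs in other data, so its direction was given with it. The cells of the young and the old library overlapped little in this sum. Each age is 1 library and its cells are not replicates, so a shift of a whole library cannot be told apart from age here. Within the list, the pair with the highest correlation across old cells was Mt1 and Mt2 (0.377 over 1900 cells of 1 library at the same depth).

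**Figure D3:**
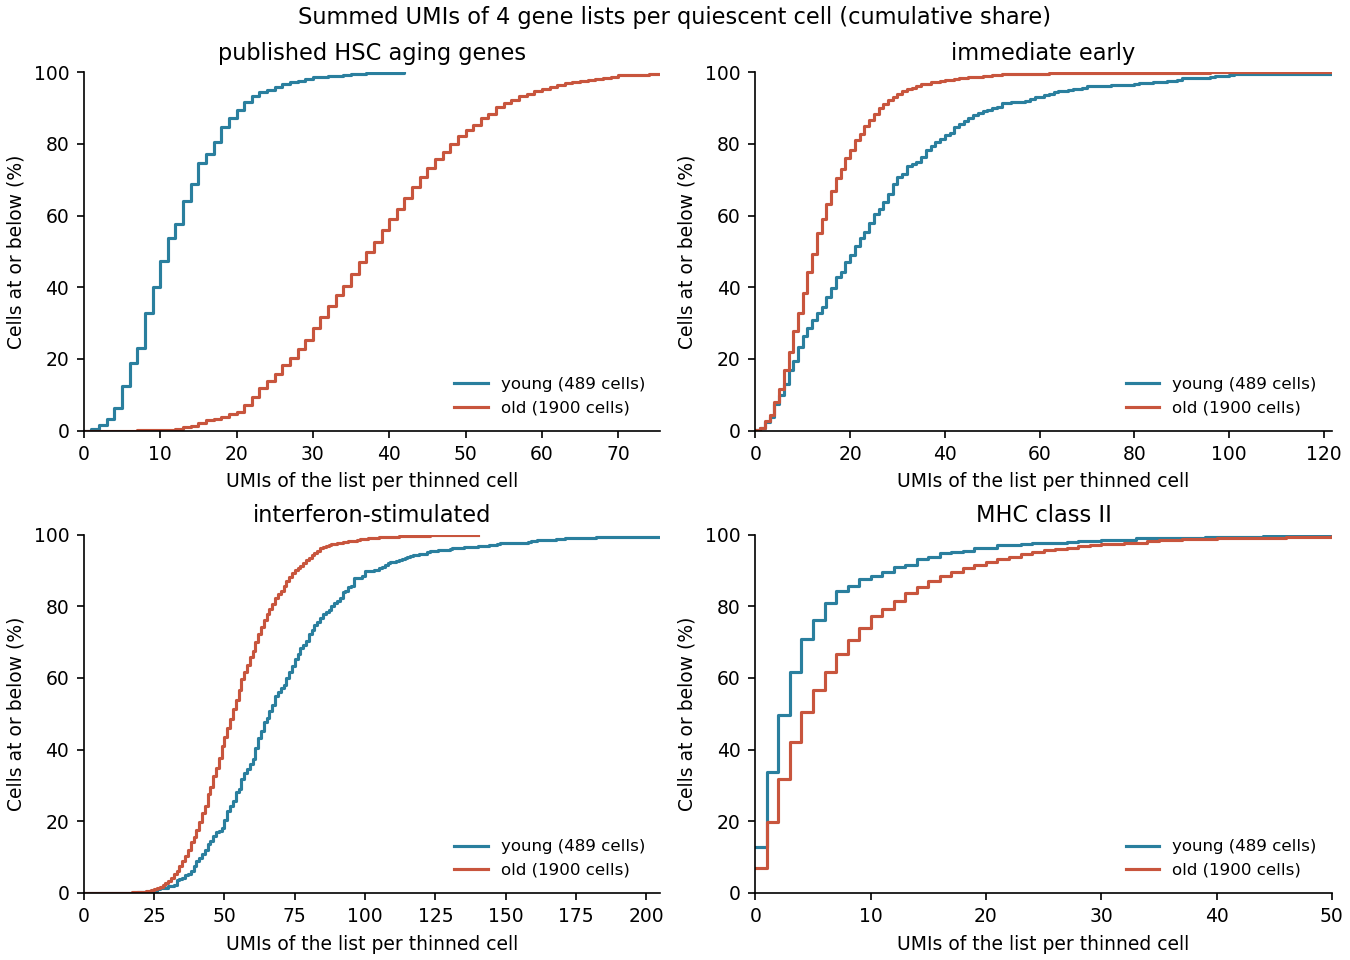
Cumulative share of thinned quiescent cells (%) against the summed UMIs of a gene list in the cell, for 489 young and 1900 old cells. The curves of the published aging genes are far apart, with medians of 11 and 38 UMIs, while for immediate early and interferon-stimulated genes the young curve reaches further to the right, with 90th percentiles of 50.2 against 26.1 and 103 against 75 UMIs.

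Among surface proteins and adhesion molecules, which tie HSCs to their niche, 9 of 30 measured genes were at least 2 times higher and 0 lower, against 1.35% and 1.11% of all genes. Beside Selp, Tm4sf1 and Cldn5 these were the fibrinogen and vitronectin receptor subunit Itgb3 (5.33 and 31.9 CPM), the desmosomal cadherin Dsg2, the receptor phosphatase Ptprk, Epcam, Alcam (58.2 and 140 CPM) and the junction protein Jam2. In bulk, 13 of 33 tested members were called higher and 2 lower, against 3.23% and 2.85% of all genes, and 10 to 14 and 0 to 2 with 1 library left out. The lower pair was Itga4, the alpha chain of the VCAM1 receptor VLA-4, and Selplg, the ligand of P-selectin. In quiescent cells Itga4 had 126 and 77.1 CPM and Selplg 67.8 and 44.2 CPM, both within the 2-fold limit, and the bulk call of each was lost in 5 of 6 fits with 1 library left out. The bulk calls of Dsg2 and Epcam were lost in 5 and 4 of these fits. The receptor Selp and its ligand Selplg thus had opposite signs by both methods. Of the 9 genes higher in quiescent cells, all but Cldn5 and Epcam are also on the published aging list, whose direction was given with it.

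Of 19 measured genes of megakaryocytes and platelets, a lineage toward which old HSCs are known to lean, 5 were at least 2 times higher and 0 lower, against 1.35% and 1.11% of all genes: Selp, Itgb3, the pleckstrin gene Plek (13.1 and 54.2 CPM), Fhl1 and Gp5. The remaining 14 stayed within the limit, with a list median of 0.24. All of the 5 higher genes but Gp5 are also on the published aging list, whose direction was given with it. In bulk 6 of 22 tested members were called higher (Fhl1, Itgb3, Mmrn1, Plek, Selp and Vwf) and 2 lower (Pf4 and Ppbp), against 3.23% and 2.85% of all genes, and 5 to 9 and 1 to 2 with 1 library left out. Vwf, the clotting factor used to mark platelet-biased HSCs, had 35.4 and 51.4 CPM, and in bulk it was called higher (log2 fold change 1.36, adjusted p = 0.00476). The transcription factor gene Nfe2 had a ratio of 1.01 (0.9495 to 1.08). Pf4, a platelet granule chemokine, had a log2 ratio of 0.24 in quiescent cells and was called lower in bulk (log2 fold change -1.99, adjusted p = 7.39e-05), so the methods differ in sign for this gene. Why they differ was not tested.

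Genes that handle retinoids and lipids held 7 of 21 measured members at least 2 times higher, against 1.35% of all genes, and in bulk 7 of 20 tested members were called higher and 0 lower, against 3.23% and 2.85%, and 4 to 6 higher with 1 library left out, the call of Fads3 being lost in 4 of 6 such fits. Several steps of retinoic acid metabolism were among the higher ones: Aldh1a1, which makes retinoic acid from retinal (30.2 and 114 CPM), Cyp26b1, which breaks it down (14.3 and 74.9 CPM), and Dhrs3, which turns retinal back to retinol (6.20 and 19.4 CPM). The retinoic acid receptor gene Rarb had 9.36 and 23.9 CPM. In bulk Aldh1a1, Dhrs3 and Rarb were called higher, the calls of Dhrs3 and Rarb being lost in 2 and 3 of 6 fits with 1 library left out, while Cyp26b1 had a log2 fold change of 1.35 (adjusted p = 0.0605). Lpl, lipoprotein lipase, had 1.30 and 15.4 CPM, a ratio of 11.8 (6.18 to 26.1). Its bulk call (log2 fold change 1.23, adjusted p = 0.0268) held without old replicate 1 and was lost without any other library, with adjusted p up to 0.119. Apoe, an abundant lipid carrier, had 642 and 1008 CPM. Of the 7 genes higher in quiescent cells, all but Rarb are also on the published aging list, whose direction was given with it.

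Of 7 measured genes of MHC class II, which presents antigen to helper T cells and is found on a part of HSCs, 2 were at least 2 times higher in old quiescent cells and 0 lower, against 1.35% and 1.11% of all genes. The class II beta chain H2-Eb1 had 31.0 and 75.9 CPM, the alpha chain H2-Aa 84.8 and 186 CPM, and the invariant chain Cd74 164 and 268 CPM. H2-Eb1 and H2-Aa passed the 2-fold limit, H2-DMa had 113.7 and 113.2 CPM, and the list median of 0.71 lay between 0.262 (no low-value filter) and 0.8705 (all quality-passing cells) under the alternatives. In bulk 4 of 9 tested members were called higher and 0 lower, against 3.23% and 2.85% of all genes, and 1 to 5 were higher with 1 library left out. H2-Eb1 FPKM were 27.6, 41.6 and 59.7 in young and 121, 83.7 and 85.1 in old libraries (log2 fold change 1.19 ± 0.24, adjusted p = 0.0124). H2-Aa FPKM were 106, 94.7 and 183.9 in young and 300.4, 211 and 178.5 in old libraries, which overlap, and it did not pass (adjusted p = 0.0522). The Cd74 call (adjusted p = 0.0257) was lost without young replicate 1 or 2 or old replicate 1 or 2, with adjusted p up to 0.11. Across thinned cells, Cd74, H2-Aa, H2-Ab1 and H2-Eb1 went together, with pair correlations of 0.465 to 0.655 in old and 0.398 to 0.593 in young cells, while the median over all 21 pairs of the list was 0.196 and 0.193. The list had a median of 3 UMIs and a 90th percentile of 12 in young cells, and 4 and 18 in old cells. MHC class I, present on all nucleated cells, had 20 measured genes with 0 past the limit either way. In bulk 4 of 20 were called higher (Calr, H2-D1, H2-T22 and H2-T23) and 0 lower, against 3.23% and 2.85% of all genes, and 0 to 4 were higher with 1 library left out.

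The lowest ratio among genes at a mean of at least 20 CPM was that of Plac8, which encodes a small cysteine-rich protein of myeloid and lymphoid progenitors and lies at chr5:100551589-100572253. It had 311 UMIs in young and 56 in old quiescent cells, 44.8 against 2.04 CPM, a ratio of 0.0456 (0.0337 to 0.0607). In thinned cells it was seen in 14.7% of young and 1.32% of old cells, and 5 young cells held 21.9% of its young UMIs. Its bulk FPKM were 96.9, 37.7 and 76.5 in young and 43.9, 17.7 and 6.62 in old libraries. The bulk groups overlapped, and the log2 fold change of -1.84 ± 0.51 did not pass (adjusted p = 0.0587). It passed without old replicate 1 (adjusted p = 0.0059) and with the replicate number as a block (adjusted p = 0.0233).

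Of 10 measured lymphoid genes 4 were at least 2 times lower and 0 higher, against 1.11% and 1.35% of all genes: the chromatin organizer Satb1 (10.5 and 2.59 CPM), the ribonuclease Rnase6 (34.0 and 9.01 CPM), Arhgap30 and Lsp1 (166 and 76.1 CPM). Rnase6 FPKM were 75.5, 101 and 95.1 in young and 10.8, 13.5 and 10.6 in old libraries, with no overlap (log2 fold change -2.85 ± 0.16, adjusted p = 2.47e-06). In bulk 6 of 15 tested lymphoid genes were called lower and 0 higher, against 2.85% and 3.23% of all genes. With 1 library left out 3 to 4 were lower, and the calls of Satb1 and Ltb were lost in all 6 such fits. Mef2c, a factor of lymphoid and megakaryocyte development, was the member with more CPM in old cells, 283 and 390. Among 13 measured myeloid genes 3 were at least 2 times lower and 1 higher, against 1.11% and 1.35% of all genes: the membrane genes Ms4a6c (43.7 and 11.3 CPM) and Ms4a6b and the galectin gene Lgals1 (59.2 and 19.5 CPM) were lower and Cebpd, a C/EBP factor, higher. Prtn3, a granule protease, had 493 and 900 CPM and was called higher in bulk (log2 fold change 1.68, adjusted p = 2.47e-06), so the myeloid list had members on both sides. In bulk 3 of 16 tested myeloid genes were called higher and 6 lower, against 3.23% and 2.85% of all genes, and 3 to 4 and 2 to 4 with 1 library left out. The cytokine signalling inhibitor Socs2 had 94.2 and 23.3 CPM and was seen in 49.3% of thinned young and 15.5% of thinned old cells. Its FPKM were 56.2, 65.0 and 57.3 in young and 46.5, 17.5 and 10.6 in old libraries (adjusted p = 0.0398). That call was lost without any 1 of the libraries other than old replicate 1, with adjusted p between 0.0689 and 0.136. It was also lost with a pseudocount of 0.1 FPKM (adjusted p = 0.0526) and with no low-value filter (0.363).

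**Figure D4:**
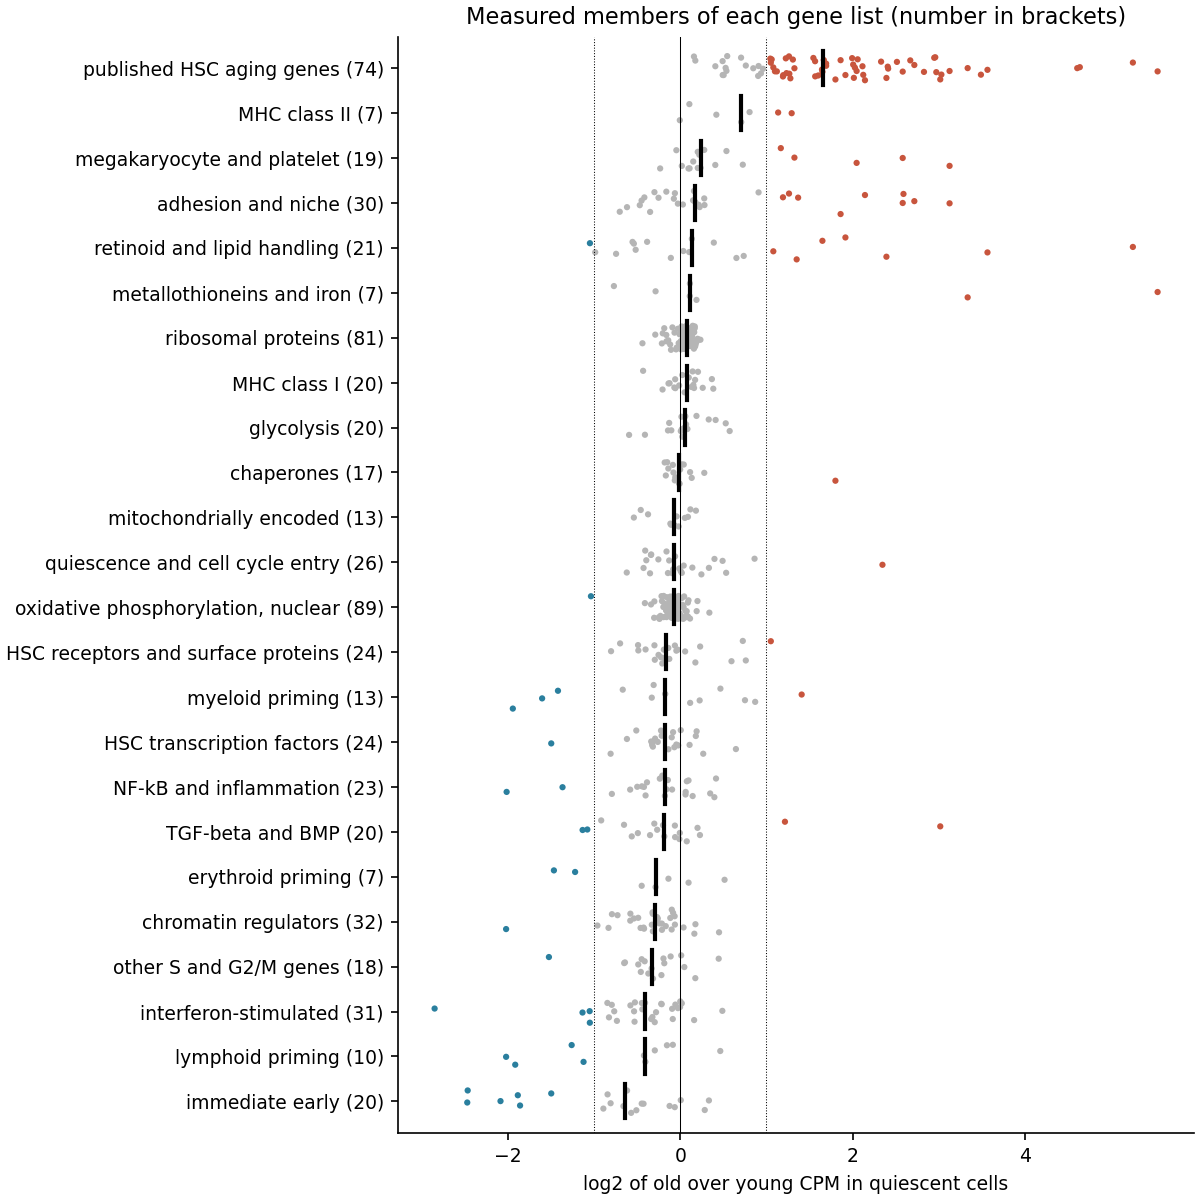
Log2 of the old over young CPM ratio of each measured member of the gene lists, with the number measured in brackets, a black bar at the list median and dotted lines at a ratio of 2 either way. The published aging genes have a median of 1.66 and the immediate early genes of -0.64, while ribosomal protein genes lie close to 0.

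Immediate early genes, which cells transcribe within minutes of a stimulus and also during tissue handling, had the lowest median of all lists, -0.64 over 20 measured genes, with 6 at least 2 times lower and 0 higher, against 1.11% and 1.35% of all genes. Fos had 308 and 72.4 CPM, Fosb 140 and 25.4 CPM, Egr1 203 and 71.8 CPM and the MAP kinase phosphatase gene Dusp1 122 and 33.7 CPM. Jun had 629 and 410 CPM. The SD of the list's UMIs over thinned cells was 0.877 times the mean in young and 0.763 times in old cells, and 21 of 136 gene pairs correlated above 0.3 in young cells against 0 in old. In bulk, Fos FPKM were 4.35, 10.4 and 1137 in young and 10.4, 12.9 and 3.09 in old libraries. The third young library was far above the other five, and the same library was highest for Fosb, Egr1, Jun and Dusp1 (915 FPKM against 47.0 and 54.9 in the other young ones). Of 21 members tested in bulk with limma, 0 were called either way, and 1 was lower and 0 higher at an unadjusted p under 0.05. Without that library the bulk log2 fold change of Fos was 0.15 (adjusted p = 0.923) and that of Egr1 0.20 (adjusted p = 0.839), while that of Dusp1 was -0.99 (adjusted p = 0.00661). The bulk difference in Fos and Egr1 thus rested on 1 library, and the part of cell handling in either kind of data was not tested. Rgs2, an inhibitor of G protein signalling, was lower in both kinds of data (41.9 and 12.6 CPM, bulk log2 fold change -2.21, adjusted p = 0.0317). The bulk call of Rgs2 was lost without old replicate 1 (adjusted p = 0.0918) or 2 (0.084), and with no low-value filter (0.35). Its FPKM were 27.5, 30.0 and 161.9 in young and 6.41, 11.7 and 14.4 in old libraries, and without young replicate 3 the log2 fold change was -1.39 (adjusted p = 0.0181).

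Interferon-stimulated genes had a median of -0.41 over 31 measured genes, with 4 at least 2 times lower and 0 higher, against 1.11% and 1.35% of all genes. The median lay between -0.44 and -0.16 under the alternatives and was -0.086 in the cells left out by the rule. Ifit3, an antiviral effector, had 117 UMIs in young and 64 in old cells, 16.8 against 2.33 CPM, but 5 young cells held 82.1% of the young UMIs, and in the cells left out by the rule its ratio went the other way (log2 0.91). Ifit1 had a log2 ratio of -1.05, with 34.4% of its young UMIs in 5 cells and a log2 ratio of 0.07 in the left-out cells. Isg15 and Irf7 had log2 ratios of -1.05 and -1.14. Ifitm1, the most abundant of the list, had 3255 and 1876 CPM and was seen in nearly every cell. Its bulk FPKM were 4020, 3468 and 3352 in young and 3663, 4067 and 2827 in old libraries, which overlap (log2 fold change -0.05, adjusted p = 0.891). The bulk log2 fold changes of Ifit1, Ifit3 and Irf7 were 0.18, -0.04 and -0.18, and none of them passed. Gene pairs of the list correlated above 0.3 in 37 of 465 cases in young and 1 of 378 in old cells. In bulk 3 of 32 tested genes were called higher (Bst2, Ifi47 and Rtp4) and 1 lower (Ifi27l2a), against 3.23% and 2.85% of all genes, and with 1 library left out 1 to 2 were higher and 1 lower.

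**Figure D5:**
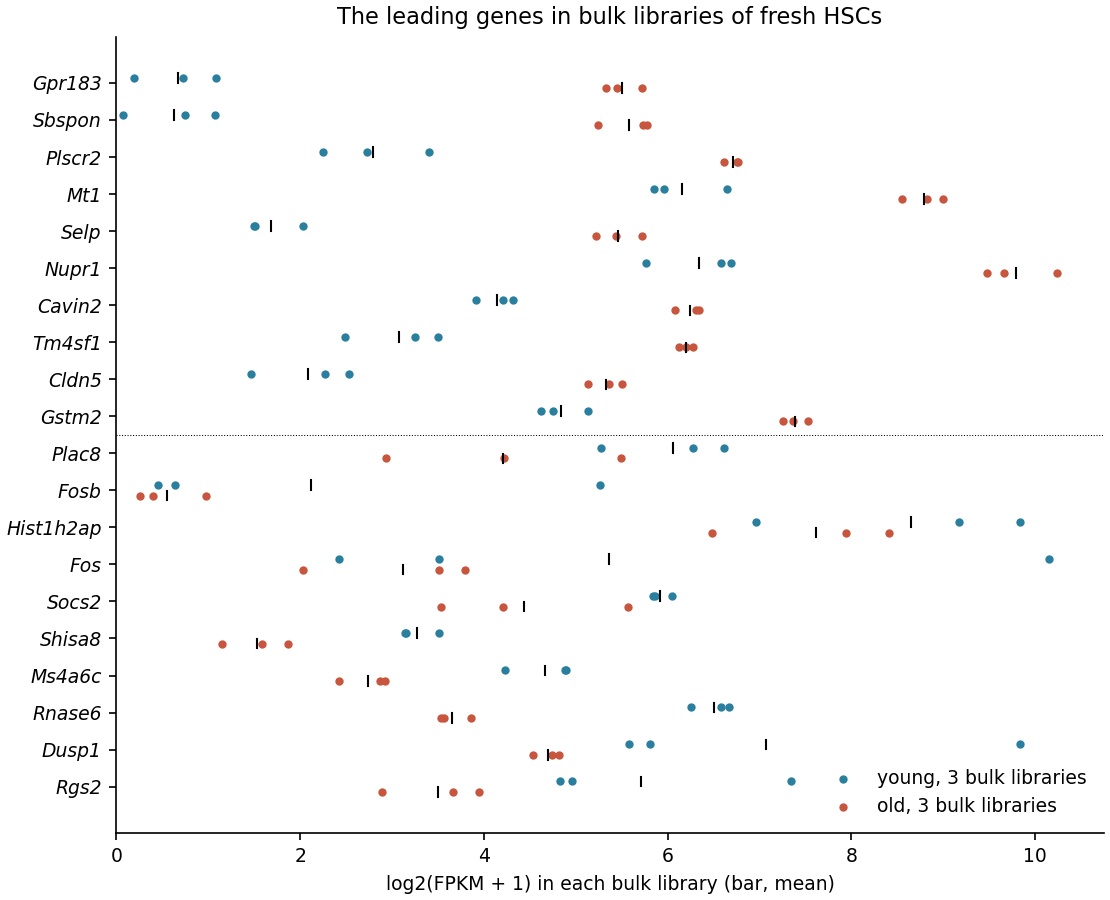
Log2(FPKM + 1) in each of 3 young and 3 old bulk libraries for the 10 genes with the highest and the 10 with the lowest ratio in quiescent cells, with bars at the means. The old libraries lie above the young ones for all 10 upper genes, against 12.5% of all genes tested. A single young library stands far to the right for Fos, Fosb and Dusp1.

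Hist1h2ap, a replication-dependent histone gene, was among the 10 lowest with 148 and 30.9 CPM. It is one of many near-identical copies, so reads may be split between them and its value is uncertain, and its bulk groups overlapped (89 to 340 FPKM in old and 124 to 913 in young). Shisa8 had 39.5 and 9.88 CPM and was called lower in bulk (log2 fold change -1.73, adjusted p = 0.0028). In all, 5 of the 10 genes with the lowest ratio were called lower in bulk, where 2.85% of all genes tested were. On the other side 10 of 10 were called higher, where 3.23% of all genes tested were.

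Of 24 measured transcription factors of HSCs, Egr1 alone passed the 2-fold limit, downward, against 1.11% of all genes, and the list median was -0.18. In bulk 3 of 24 were called higher (Hlf, Lmo2 and Mllt3) and 0 lower, against 3.23% and 2.85% of all genes, and 1 to 4 were higher with 1 library left out. Lmo2 had 1053 and 1057 CPM in quiescent cells and was higher in bulk (log2 fold change 0.64, adjusted p = 0.00174), and Meis1 had 250 and 233 CPM. The HSC markers, which took no part in choosing the cells, went different ways: Hlf had 542 and 380 CPM, Mecom 213 and 139 CPM and Procr 160 and 241 CPM. In bulk, Procr FPKM were 67.9, 85.8 and 71.0 in young and 144, 170 and 155 in old libraries (log2 fold change 1.05 ± 0.12, adjusted p = 0.000511). Hlf FPKM were 36.7, 34.3 and 27.8 in young and 47.5, 45.6 and 55.6 in old libraries, higher in old (log2 fold change 0.58 ± 0.15, adjusted p = 0.0421), the opposite of the sign in quiescent cells. The bulk call for Hlf was lost without any 1 of the 6 libraries (adjusted p between 0.0553 and 0.178) and with the replicate number as a block (adjusted p = 0.0648). Slamf1, which encodes the sort antigen CD150, had 40.9 and 35.8 CPM in quiescent cells, a ratio of 0.876 (0.767 to 1.00). In bulk its FPKM were 17.5, 24.1 and 27.2 in young and 40.1, 60.6 and 55.8 in old libraries (log2 fold change 1.15 ± 0.20, adjusted p = 0.00564). Mllt3 had 351.1 and 292.9 CPM, against a bulk log2 fold change of 0.59 (adjusted p = 0.03, lost in 4 of 6 fits with 1 library left out). Mecom had a bulk log2 fold change of 0.21 (adjusted p = 0.63), with the opposite sign to that in quiescent cells. For Hlf, Mllt3, Slamf1 and Lmo2 the 3′-end counts of single cells and the full-length bulk values therefore differ, and the part of the library chemistry and of the dividing cells was not tested. Of the other sorted antigens, Cd34 had 72.0 and 44.4 CPM and was called lower in bulk (log2 fold change -1.16, adjusted p = 0.000686), Kit had 288 and 264 CPM, Ly6a 318 and 226 CPM with a bulk log2 fold change of 0.20 (adjusted p = 0.325), and Cd48 5 and 3 UMIs in all.

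Genes that hold cells in or release them from quiescence had 1 of 26 measured members at least 2 times higher and 0 lower, against 1.35% and 1.11% of all genes. In bulk 4 of 26 were called higher (Cdkn2c, Mycn, Ndn and Rb1) and 0 lower, against 3.23% and 2.85% of all genes, and 3 to 6 were higher with 1 library left out. Cdkn2c, the CDK4 and CDK6 inhibitor p18, had 4.32 and 21.99 CPM, a ratio of 5.09 (3.53 to 7.61). Its FPKM were 6.78, 7.95 and 8.53 in young and 25.6, 26.6 and 28.0 in old libraries (log2 fold change 1.67 ± 0.17, adjusted p = 0.000249). The cyclin gene Ccnd1 had 61.2 and 111 CPM, and its bulk values did not pass (adjusted p = 0.121). The inhibitors Cdkn1b and Cdkn1c had log2 ratios of -0.25 and -0.01. Replication and mitosis genes that the rule did not use, 18 of them measured, had 1 lower member, Cdk1 (9.65 and 3.35 CPM), against 1.11% of all genes. In bulk 23 of 27 tested were called lower and 0 higher, against 2.85% and 3.23%, and 10 to 24 lower with 1 library left out. The median log2 ratio of these genes was -0.33 in the kept cells and -0.30 in the left-out cells. The whole list, led by Stmn1, summed to 1620 CPM in young and 1569 CPM in old kept cells. Cells kept by the rule were thus not free of such transcripts.

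Genes of TGF-beta and BMP signalling, inhibitory members included, had 2 of 20 measured members at least 2 times higher and 2 lower, against 1.35% and 1.11% of all genes. In bulk 3 of 21 were called higher (Bmpr1a, Id2 and Smad1) and 1 lower (Id1), against 3.23% and 2.85%, the Smad1 call being lost in 5 of 6 fits with 1 library left out. The BMP receptor gene Bmpr1a had 12 UMIs in young and 384 in old cells, a ratio of 8.10 (4.58 to 15.8), and FPKM of 0.174, 0.379 and 0.123 in young and 5.00, 5.05 and 3.35 in old libraries (log2 fold change 2.15 ± 0.27, adjusted p = 0.000791). Id2, an inhibitor of bHLH factors, had 13.2 and 30.8 CPM and was called higher in bulk, while Id1 had 7.78 and 3.68 CPM and was called lower (log2 fold change -1.16, adjusted p = 0.0229), a call lost in 4 of 6 fits with 1 library left out. The pair of Id genes therefore had opposite signs by both methods. The inhibitory Smad6 had 7.20 and 3.28 CPM and did not pass in bulk (adjusted p = 0.254). Of 17 measured chaperone genes 1 was at least 2 times higher and 0 lower, against 1.35% and 1.11% of all genes. This was the secreted chaperone Clu, with 22.2 and 77.3 CPM and a bulk log2 fold change of 3.08 ± 0.15 (adjusted p = 2.47e-06). In bulk 3 of 20 chaperones were called higher (Clu, Hsp90b1 and Hspb1) and 0 lower, against 3.23% and 2.85% of all genes. With 1 library left out 2 to 5 were higher and 0 to 1 lower, and the Hsp90b1 call was lost in 4 of 6 such fits.

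In the cells that the rule left out, 556 young and 651 old, the leading genes lay on the same side. Gpr183 had 1.96 and 36.0 CPM there, a log2 ratio of 4.20 against 5.25 in quiescent cells, and Plscr2 had 4.00 against 3.49. Nupr1 had 250 CPM in old left-out cells and 340 CPM in old quiescent ones. Ltb, the lymphotoxin beta gene, had 292 and 218 CPM in quiescent cells but 127 and 136 CPM in the others. Whether the age ratios differ between quiescent and left-out cells was not tested, since each rests on 1 library per age.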

How the data were processed

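The authors deposited unscaled UMI counts for each cell, made with Cell Ranger (mm10, protein-coding genes). The authors deposited bulk FPKM per gene from SMART-Seq libraries. Their processing notes name Trim Galore, HISAT2 2.0.0, Cufflinks and HTSeq 0.12.4 without saying which gave the FPKM, and bulk depth is unknown. The members and gene lists were chosen with earlier results of these data known. Here, UMIs of the kept cells were summed per library (6941640 young, 27423648 old) and scaled to CPM. Intervals are exact Poisson, binomial or conditional binomial at 95%. The 10 repeated bulk symbols were summed and genes reaching 1 FPKM on average in either group were fitted with limma 3.58.1 (trend, pseudocount 1, Benjamini-Hochberg, R 4.3.3). The 13 mitochondrially encoded genes are listed at 0 in bulk. Named genes are the 10 highest and 10 lowest ratios at a mean of at least 20 CPM (no predicted genes, no rule genes), the markers, the sort antigens, and per list the 2 most abundant and the 2 most changed members, and the 10 genes most uneven over thinned cells in each library, beside members named to account for a list's calls, which were chosen after their values were seen. Correlations used genes with a mean of at least 0.1 UMI, and counting noise holds those of such low counts near 0. Both steps were tested on simulated data with 200 changed genes. Some genes of the lists are not reported here. Groups follow the sample titles. Alternatives covered scaling, filters, the rule, doublets, pseudocount, the replicate block and each bulk library left out, and cells with erythroid UMIs left out, which was added after seeing the data.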

Additional observations from a re-analysis of the deposited data

How the results depend on the processing

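Over the single-cell alternatives, the numbers of genes past the 2-fold limit moved most with the low-value filter: without it 579 genes were higher and 835 lower, and at a mean of at least 20 CPM 51 and 36. Applying the rule after thinning gave quiescent shares of 57.49% in young and 81.44% in old cells, and asking for 0 UMIs of all 14 rule genes gave 35.4% and 60.3%. Using all cells that passed the quality limits gave 147 genes higher, 112 of them shared with the quiescent cells, and 145 lower, 60 shared. Leaving out the 66 young and 190 old cells with at least 3 erythroid marker UMIs, chosen after seeing the data, gave 132 and 106. Some list medians moved widely over the single-cell alternatives. They ranged from 0.136 to 0.335 for megakaryocyte and platelet genes and from -0.191 to -0.0485 for HSC transcription factors. For replication and mitosis genes outside the rule the range was -0.898 to -0.226. None of the 112 named genes that was past the limit changed sign under these alternatives, but 65 moved beyond their counting interval with all quality-passing cells (largest change over the 112 of 1.40 on the log2 scale), 51 with the median-ratio scaling (largest 0.1), 23 with the total without ribosomal and mitochondrial genes (largest 0.047), 16 with the rule after thinning (largest 0.749), 6 with 0 UMIs of all rule genes (largest 0.492), 5 without erythroid-marker cells (largest 0.843) and 2 with the mean over cells (largest 0.43). The log2 ratio of Gpr183 was 4.59 and of Lpl 2.82 with the rule after thinning, that of Mt2 was 6.38 without erythroid-marker cells, and with all quality-passing cells those of Lpl, Cdkn2c, Bmpr1a and Ifit3 were 2.32, 1.45, 3.62 and -1.45. In bulk, testing every gene above 0 in at least 1 library gave 75 genes higher and 27 lower; the cause was not tested. Leaving out 1 library at a time gave 215 to 365 genes higher and 160 to 298 lower, the lowest in both without young replicate 1. Without old replicate 2 there were 233 genes higher, without old replicate 3 there were 216 higher and 201 lower, and without young replicate 2 there were 179 lower. With the replicate number as a block, 381 genes were higher and 322 lower, 335 and 283 of them shared with the fit without it. Same-numbered libraries deviated together with correlations of 0.107, 0.0369 and 0.0285, so the numbers were not taken as pairs. Of 46 named genes called in bulk, 19 were called under every alternative. The other 27 all lost the call with no low-value filter. Of 168 members of the gene lists called in bulk, 81 lost the call without at least 1 library. Low counts limit the ratios of Mt2, Lpl and Bmpr1a most, which rest on 4, 9 and 12 young UMIs.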

Other observations

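Metabolic and housekeeping groups lay close together at both ages in quiescent cells. The 81 measured ribosomal protein genes had a median log2 ratio of 0.08 and 0 past the 2-fold limit, and the 20 glycolysis genes a median of 0.05 and 0 past it. Of 89 nuclear genes of oxidative phosphorylation 1 was lower, against 1.11% of all genes: Cox4i2, a tissue-restricted subunit of complex IV (11.5 and 5.62 CPM). In bulk 1 of 91 was called lower (Ndufb1-ps) and 0 higher, against 2.85% and 3.23% of all genes. With 1 library left out 0 to 5 were lower and 0 to 1 higher. At an unadjusted limma p under 0.05, 28 of the 91 were lower and 1 higher, against 1015 and 1134 of all 11279 tested. Of 20 glycolysis genes 2 were called higher in bulk (Ldha and Pfkp) and 0 lower, against 3.23% and 2.85% of all genes. With 1 library left out 0 to 2 were higher. Ldha, lactate dehydrogenase A, had 384 and 572 CPM and was called higher in bulk by limma (log2 fold change 0.46 ± 0.09, adjusted p = 0.0152), a call lost without young replicate 1 (adjusted p = 0.0684) or old replicate 3 (0.0807). Among 32 measured chromatin regulators, 28 had fewer CPM in old quiescent cells, with a median of -0.29 against -0.09 over all genes, of which 33.7% had more CPM in old cells, and Satb1 alone passed the limit. Ezh1, the Polycomb methyltransferase of resting cells, had 43.6 and 59.6 CPM and was called higher in bulk (log2 fold change 0.83, adjusted p = 0.0329, lost in 5 of 6 fits with 1 library left out), and 4 of the 33 tested were called lower (Dnmt1, Ezh2, Lmnb1 and Satb1) and 1 higher, against 2.85% and 3.23% of all genes, and 1 to 2 were lower with 1 library left out. The DNA methyltransferase Dnmt3b had 29.8 and 16.7 CPM and did not pass (adjusted p = 0.105). With the median-ratio scaling these list medians are higher by 0.1.

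Beside Ifit3 and Ifit1 above, some other named genes had much of their UMIs in 5 cells. Dlk1, an imprinted Notch-related ligand, had 24.4 CPM in young and 28.1 CPM in old quiescent cells, and 5 cells held 45.6% of its young and 11.2% of its old UMIs. The alpha-globin gene Hba-a1 had 10.1 and 3.65 CPM with 48.6% and 40.0% of UMIs in 5 cells, and its bulk FPKM were 468 in old replicate 1 and between 6.81 and 17.1 in the other libraries.

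Of 24 measured HSC receptors and surface proteins, the lectin receptor gene Clec1a alone passed the limit, upward, against 1.35% of all genes. In bulk 4 of 28 were called higher (Clec1a, Procr and Slamf1 among them) and 2 lower (Cd34 and Flt3), against 3.23% and 2.85%, and 3 to 4 and 1 to 2 with 1 library left out. Of 23 measured NF-kB and inflammation genes 2 were lower (Socs2 and Nfkbiz) and 0 higher, against 1.11% and 1.35% of all genes, and of 7 measured erythroid genes 2 were lower, the globins Hba-a1 and Hbb-bs, and 0 higher. In bulk 2 of 25 NF-kB genes were called higher (Cd14 and Nfkbia) and 2 lower (Rel and Socs2), 1 to 3 and 0 to 1 with 1 library left out, and of 13 erythroid genes 0 were higher and 1 lower (Gata1), against 3.23% and 2.85% of all genes. With 1 library left out 0 to 1 erythroid genes were lower, and the Gata1 call was lost in 4 of 6 such fits. Without the cells with at least 3 erythroid marker UMIs, the log2 ratio of Hbb-bs was -0.63, within the limit, and that of Hba-a1 -2.11.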
